A study of Mus musculus with 48 samples.

Results

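The chemokine genes described here are the CC genes Ccl3, Ccl4, Ccl6, Ccl9 and Ccl2 and the CXC gene Ppbp, 6 genes with 8 probe sets on the array. They were chosen from earlier results on the same 48 arrays, so their own values are given as a description, with no test, and tests are given only for other genes. Every probe set that the platform annotation assigns to 1 of these 6 genes was taken. Of the 6 genes, 5 were among the 12800 genes that passed the filter on low signals, which required 1 or more group means above the median of all values, a signal of 14. Ccl2 did not pass it.

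The arrays measured total RNA of 32D cells, which are mouse myeloid progenitors grown as a line, and every culture expressed the p210 BCR/ABL oncoprotein. One line carried the empty MigRI retroviral vector, and the other lines carried C/EBPα-ER, a fusion of the myeloid transcription factor C/EBPα with the estrogen receptor domain that binds hormone, as wild type (WT), as K298E, a mutant that does not bind DNA per the labels, or as Δ(177-191), a mutant that does not interact with CDK2 and CDK4 per the labels. All 4 lines received 4-hydroxytamoxifen (4-HT), which activates the fusion, and each was measured at 0, 6, 9 and 12 h with 3 arrays, so that 16 groups resulted. The labels describe 1 line per construct and no later culture without 4-HT, and p-values therefore measure only the spread between these arrays. Esr1, whose probe set reads a part of the fusion, gave a signal of 18.3 ± 1.15 (SD, n = 3) at 0 h in the vector line, 2475 ± 214 in the WT line, 1439 ± 145 in the K298E line and 3263 ± 446 in the Δ(177-191) line. The median signal per array lay between 11 and 19.

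Chemokines are small secreted proteins that draw leukocytes toward their source by binding receptors with 7 membrane passages, which are named after the ligand class (CCR and CXCR). CCL3 and CCL4 are also called macrophage inflammatory proteins, and CCL3 binds CCR1. CCL6 and CCL9 are CC chemokines of rodents that act through CCR1. Ppbp encodes pro-platelet basic protein, a CXC chemokine precursor stored in platelet granules and cleaved to a CXCR2 ligand. CCL2 draws monocytes through CCR2.

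In the RefSeq annotation Ccl9, Ccl6, Ccl3 and Ccl4 lie near each other on chromosome 11, where the annotated spans of Ccl3 and Ccl4 overlap, and Ppbp lies beside Pf4, another platelet CXC chemokine gene, on chromosome 5. The RefSeq promoter table of build GRCm38.p6 held 4 of the 6 genes. Their 250 bases upstream of the annotated start are shown because C/EBPα is a DNA-binding factor and the K298E fusion differs in this function. Capitals mark matches to the 8-base pattern TTNNGNAA on either strand, a relaxed form of the C/EBP core.
Ccl3, chr11:83649379-83649628, minus strand: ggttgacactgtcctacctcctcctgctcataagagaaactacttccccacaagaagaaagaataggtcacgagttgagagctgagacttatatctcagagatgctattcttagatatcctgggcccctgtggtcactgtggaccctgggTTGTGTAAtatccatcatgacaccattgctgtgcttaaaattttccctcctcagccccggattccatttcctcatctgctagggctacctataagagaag
Ccl9, chr11:83578637-83578886, minus strand: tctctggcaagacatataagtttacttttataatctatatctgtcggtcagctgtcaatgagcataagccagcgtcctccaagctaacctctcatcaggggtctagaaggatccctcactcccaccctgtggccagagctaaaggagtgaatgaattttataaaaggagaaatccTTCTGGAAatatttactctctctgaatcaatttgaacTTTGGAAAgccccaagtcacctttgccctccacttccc
Ccl6, chr11:83593088-83593337, minus strand: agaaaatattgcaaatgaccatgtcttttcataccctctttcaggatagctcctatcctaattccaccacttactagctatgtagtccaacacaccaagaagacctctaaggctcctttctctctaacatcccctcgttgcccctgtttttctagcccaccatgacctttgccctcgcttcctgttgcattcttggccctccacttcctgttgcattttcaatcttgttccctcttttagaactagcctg
Ppbp, chr5:90768268-90768517, plus strand: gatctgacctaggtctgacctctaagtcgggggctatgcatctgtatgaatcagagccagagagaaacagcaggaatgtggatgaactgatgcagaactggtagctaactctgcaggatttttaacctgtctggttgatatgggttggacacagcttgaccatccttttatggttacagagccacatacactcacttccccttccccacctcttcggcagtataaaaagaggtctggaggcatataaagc
The Ccl3 window held 1 match, TTGTGTAA, which began 100 bases upstream of the start. The Ccl9 window held 2, TTCTGGAA at 75 bases and TTTGGAAA at 38 bases upstream. The Ccl6 and Ppbp windows held none of these letters. The pattern occurs in 36.8% of the 32851 promoter windows of this length, and the stricter pattern TTGCNNAA, found in 9.56% of them, occurred in none of the 4. A relaxed NF-kB site, GGG followed by any 5 bases and CC on either strand, was found in the Ccl9 window at 35 bases upstream, where it overlaps the TTTGGAAA match, against 45.8% of all windows. The STAT pattern TTCNNNGAA was found in none of the 4, against 7.02% of all windows. TATAAA occurred in the Ppbp window at 30 and 8 bases upstream and in the Ccl9 window at 92, 94 and 224 bases upstream, the last 2 on the opposite strand and the first 2 overlapping, against 12.4% of all windows. In the 300-base windows that add the first 50 transcribed bases, the best local alignment of Ccl6 and Ccl9 spanned 74 columns, of which 58 were identical. The longest run shared by these 2 windows had 13 bases, against 8 to 10 in the other pairs.

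**Figure D1:**
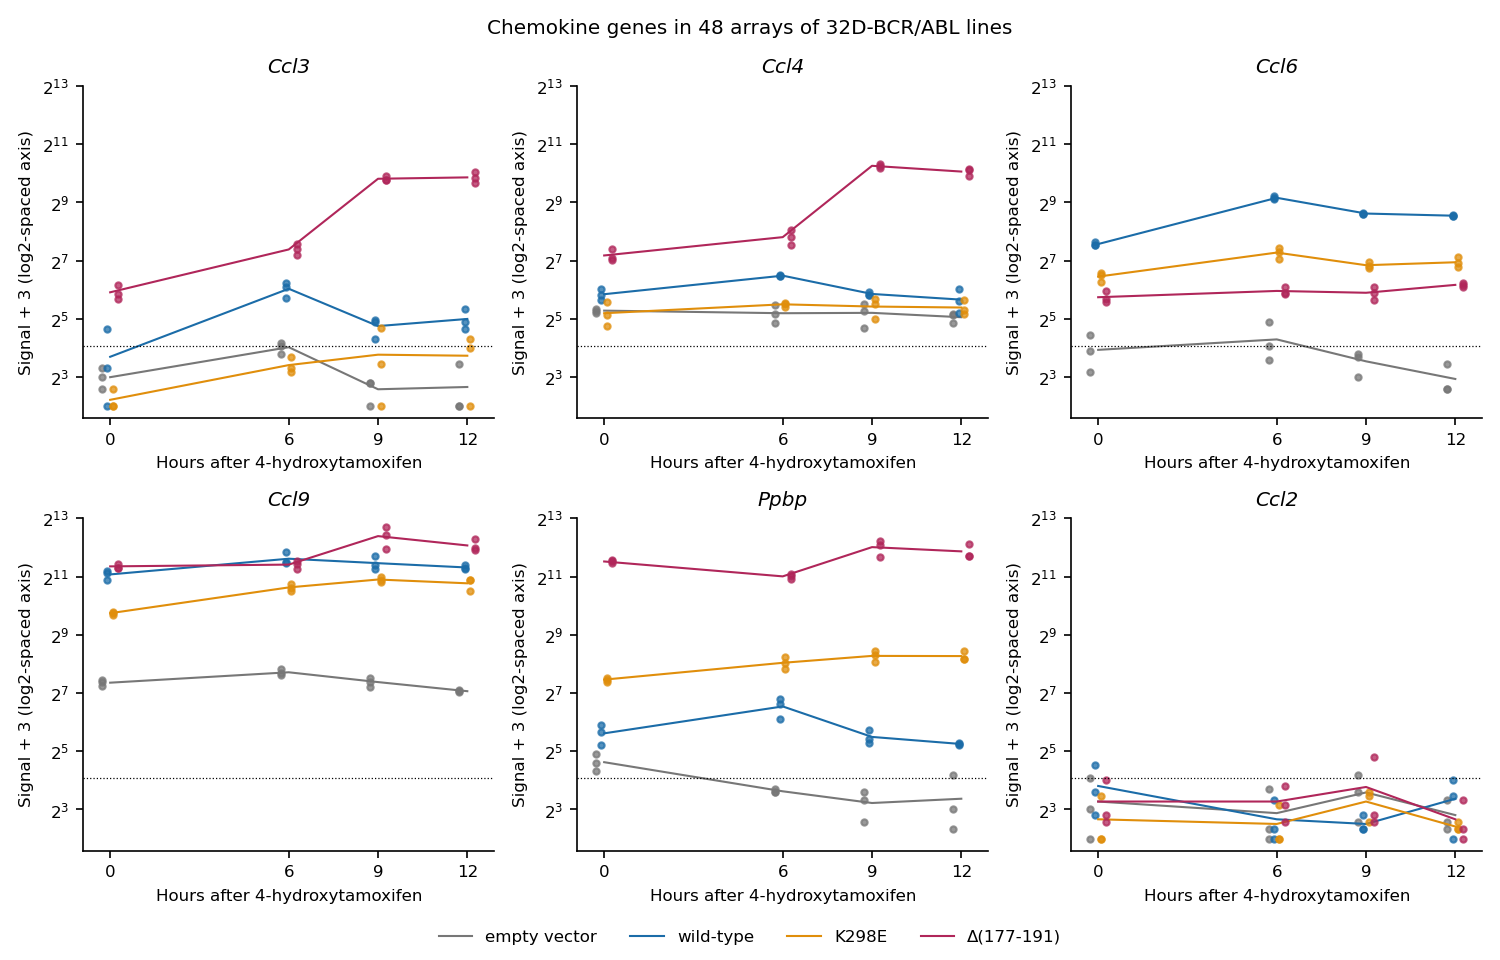
Signal plus 3 of the main probe set of each gene (vertical log2-spaced axis) by hours after 4-HT, with 1 point per array, shifted sideways by line, and lines through the mean signals of 3 arrays. The dotted line marks a signal of 14; Ccl3 and Ccl4 reach mean signals of 927 and 1223 in the Δ(177-191) line, Ccl6 is highest in the WT line at every time, Ccl9 is above the vector line in all 3 fusion lines, and Ppbp separates all 4 lines.

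Ccl3 was highest in the Δ(177-191) line and near background in the vector and K298E lines. Its signals in the Δ(177-191) line were 55, 48 and 69 at 0 h, 186, 165 and 142 at 6 h, 868, 955 and 869 at 9 h, and 815, 1052 and 915 at 12 h. All 9 later arrays of that line lay above its 0 h arrays, and the mean at 12 h was 16.2 times the mean at 0 h. In the WT line the signals were 1, 22 and 7 at 0 h, 73, 50 and 65 at 6 h, 17, 27 and 28 at 9 h, and 22, 38 and 27 at 12 h. Of the 9 later WT arrays, 7 lay above the highest 0 h array, and the highest mean, 62.7 ± 11.7, was that at 6 h. In the vector line the 12 arrays ran from 1 to 15, and in the K298E line from 1 to 23, so that neither line gave a level clearly above the background of the array. The Δ(177-191) arrays lay above every array of the other lines at each time.

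Relative to the change in vector cells, Ccl3 changed in the Δ(177-191) line by 4.44 ± 0.70 (SE of the model) on the log2(signal + 3) scale at 12 h, in the WT line by 2.13 ± 0.70 and in the K298E line by 1.73 ± 0.70. These differences lean on signals under 14 in the vector line. With 12 or 32 added to each signal in place of 3, the WT value was 1.17 or 0.63, the K298E value 0.80 or 0.38, and the Δ(177-191) value 3.94 or 3.50. The WT value was 1.21 without replicate 1 and 3.07 without replicate 2, and the K298E value 0.77 and 3.11. At 0 h the Δ(177-191) line already lay 2.93 ± 0.50 above the vector line, while the WT line differed by 0.35 ± 0.50 and the K298E line by -0.77 ± 0.50.

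Ccl4, which encodes the other macrophage inflammatory protein, was also highest in the Δ(177-191) line at each time. Its Δ(177-191) signals were 134, 165 and 127 at 0 h, 262, 182 and 220 at 6 h, 1273, 1229 and 1166 at 9 h, and 1116, 954 and 1127 at 12 h. The step came between 6 and 9 h: the mean at 6 h was 1.56 times that at 0 h, and the mean at 9 h was 8.61 times that at 0 h. In the WT line the signals were 47, 54 and 63 at 0 h, 88, 86 and 86 at 6 h, 53, 54 and 58 at 9 h, and 46, 34 and 63 at 12 h. At 6 h the 3 WT arrays exceeded all 0 h arrays of the line, and those at 9 and 12 h did not. The vector arrays ran from 23 to 43 and the K298E arrays from 24 to 48, and these lines overlapped at all 4 times.

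The relative change of Ccl4 at 12 h was 3.12 ± 0.28 in the Δ(177-191) line, 0.45 ± 0.28 in the K298E line and 0.01 ± 0.28 in the WT line. At 6 h it was 0.73 ± 0.28 in the Δ(177-191) line and 0.76 ± 0.28 in the WT line, and at 9 h 3.20 ± 0.28 and 0.13 ± 0.28. At 0 h the Δ(177-191) mean was 3.94 times and the WT mean 1.52 times the vector mean, with no overlap of the 3 arrays in either case. Across the 12 arrays of the Δ(177-191) line Ccl3 and Ccl4 had a Pearson r of 0.97, against 0.48 in the WT, 0.10 in the vector and -0.23 in the K298E line, where Ccl3 was near background. These arrays share their times and cultures, and the r values are a description.

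Ccl6 had another order: it was highest in the WT line, followed by K298E, Δ(177-191) and vector, with no overlap between neighbouring lines at any of the 4 times for its main probe set 1417266_at. The WT signals were 185, 181 and 196 at 0 h, 551, 566 and 591 at 6 h, 389, 392 and 390 at 9 h, and 364, 371 and 376 at 12 h. All 9 later WT arrays lay above the 0 h arrays, and the mean at 6 h was 3.04 times and that at 12 h 1.98 times the mean at 0 h. The K298E signals were 74, 88 and 92 at 0 h, 172, 155 and 130 at 6 h, 110, 121 and 105 at 9 h, and 117, 138 and 106 at 12 h. All 9 later K298E arrays were also above the 0 h arrays, with a highest mean of 1.80 times that at 0 h, reached at 6 h. The Δ(177-191) signals ran from 45 to 59 at 0 h and from 47 to 72 later, and 5 of the 9 later arrays lay above every 0 h array. The vector signals were 19, 12 and 6 at 0 h and 8, 3 and 3 at 12 h.

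For Ccl6 the relative change at 12 h was 1.94 ± 0.34 in the WT line, 1.46 ± 0.34 in the K298E line and 1.40 ± 0.34 in the Δ(177-191) line. The change of the vector line itself, -0.97 ± 0.24 among signals under 20, is part of all 3 values. Their sizes therefore depend on the added 3. The second probe set, 1420249_s_at, whose suffix marks probes that match more than 1 transcript, gave the same order of line means at each time, with overlaps between the vector and Δ(177-191) lines at 0 and 12 h and between the Δ(177-191) and K298E lines at 12 h. It read 35, 41 and 44 at 0 h and 215, 227 and 231 at 6 h in the WT line. Its relative changes at 12 h were 0.88 ± 0.45 in the WT, -0.20 ± 0.45 in the K298E and 0.24 ± 0.45 in the Δ(177-191) line. The probe sets thus disagree on the size at 12 h and on the sign in the K298E line. They also disagree on the vector change, which was 0.62 ± 0.32 by the second probe set, among signals under 14. Within the K298E line itself the change at 12 h was 0.49 ± 0.24 by the main and 0.42 ± 0.32 by the second probe set. At 6 h the relative changes of the second probe set were 2.92 ± 0.45, 1.71 ± 0.45 and 1.62 ± 0.45 in the WT, K298E and Δ(177-191) lines.

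**Figure D2:**
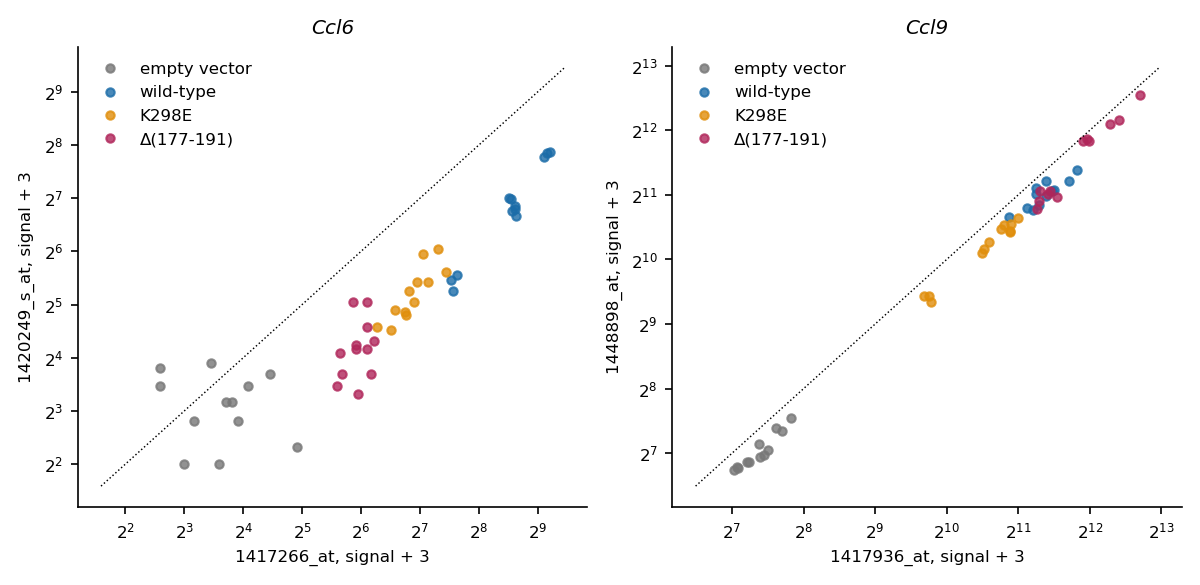
Signal plus 3 of the second probe set (vertical) against that of the main probe set (horizontal), both on log2-spaced axes, for the 48 arrays, coloured by line, with the line of equality dotted. The Ccl9 probe sets follow each other over the whole range (Pearson r of 0.998 on the log2 scale), and those of Ccl6 part among the low vector signals (0.907).

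Ccl9 was well above background in every array and lay far higher in all 3 fusion lines than in the vector line before 4-HT acted. At 0 h its main probe set 1417936_at read 148, 171 and 163 in the vector line, 1876, 2225 and 2351 in the WT line, 860, 881 and 817 in the K298E line, and 2789, 2518 and 2508 in the Δ(177-191) line. No neighbouring lines overlapped at 0 h, and the means of the fusion lines were 13.4, 5.31 and 16.2 times the vector mean. After 4-HT the WT signals were 3631, 2905 and 2847 at 6 h, 3343, 2426 and 2666 at 9 h, and 2670, 2425 and 2513 at 12 h. All 9 of these WT arrays were above the 0 h arrays, but the mean at 12 h was only 1.18 times that at 0 h.

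The K298E line showed a larger proportional change of Ccl9, with signals of 1729, 1465 and 1539 at 6 h, 1785, 1888 and 2042 at 9 h, and 1901, 1886 and 1433 at 12 h. All 9 lay above the 0 h arrays, and the mean at 9 h was 2.23 times that at 0 h. The Δ(177-191) signals were 2726, 2453 and 2975 at 6 h, with a mean of 2718 inside the range of the 0 h arrays, then 6638, 5456 and 3979 at 9 h and 3816, 4056 and 4998 at 12 h. The arrays at 9 and 12 h lay above every 0 h array. In the vector line the signals were 204, 223 and 193 at 6 h, 179, 165 and 145 at 9 h, and 133, 132 and 127 at 12 h, the last below every 0 h array. The relative change at 12 h was 1.31 ± 0.18 in the K298E line, 1.001 ± 0.18 in the Δ(177-191) line and 0.53 ± 0.18 in the WT line, and the second probe set 1448898_at gave 1.19 ± 0.16, 1.14 ± 0.16 and 0.43 ± 0.16.

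Ppbp was highest in the Δ(177-191) line and fell to background in the vector line. Its Δ(177-191) signals were 3013, 2955 and 2817 at 0 h, 2050, 2184 and 1925 at 6 h, 4776, 4294 and 3294 at 9 h, and 3361, 3340 and 4476 at 12 h. All 3 arrays at 6 h lay below and all 6 at 9 and 12 h above the 0 h arrays. The K298E signals were 172, 182 and 165 at 0 h, 256, 301 and 222 at 6 h, 342, 264 and 314 at 9 h, and 342, 288 and 286 at 12 h. All 9 later K298E arrays lay above the 0 h arrays, with means of 1.50, 1.77 and 1.76 times the 0 h mean. The WT signals were 34, 57 and 47 at 0 h, 66, 96 and 108 at 6 h, 36, 40 and 50 at 9 h, and 36, 34 and 35 at 12 h. Only the WT arrays at 6 h were all above the 0 h arrays.

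In the vector line Ppbp read 17, 21 and 27 at 0 h, 10, 9 and 9 at 6 h, 7, 9 and 3 at 9 h, and 2, 15 and 5 at 12 h, and all 9 later arrays were below the 0 h arrays. The 4 lines kept the order vector, WT, K298E and Δ(177-191) without overlap at all 4 times. At 0 h the Δ(177-191) mean was 135 times, the K298E mean 7.98 times and the WT mean 2.12 times the vector mean. The relative change at 12 h was 2.25 ± 0.35 in the K298E, 1.77 ± 0.35 in the Δ(177-191) and 1.10 ± 0.35 in the WT line, and the vector change of -1.44 ± 0.25 is part of each. With 32 added to each signal these became 1.17, 0.79 and 0.25, and the WT value was 0.61 without replicate 1 and 1.79 without replicate 2. Pf4, its neighbour, read 549 ± 22.4 in the Δ(177-191), 62.0 ± 3.61 in the K298E, 36.0 ± 7.94 in the WT and 35.7 ± 4.93 in the vector line at 0 h. By limma the Pf4 difference from vector at 0 h was 3.84 ± 0.17 in the Δ(177-191) line (adjusted p = 1.47e-22), 0.76 ± 0.17 in the K298E line (adjusted p = 0.00269) and 0.00 ± 0.17 in the WT line (adjusted p = 0.998).

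Ccl2 gave no signal above background. Its 48 arrays ran from 1 to 25, 45 of them were at or under 14, the highest group mean was 11 in the WT line at 0 h, and neighbouring lines overlapped at every time. A lower level than the array resolves cannot be told from absence here.

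**Figure D3:**
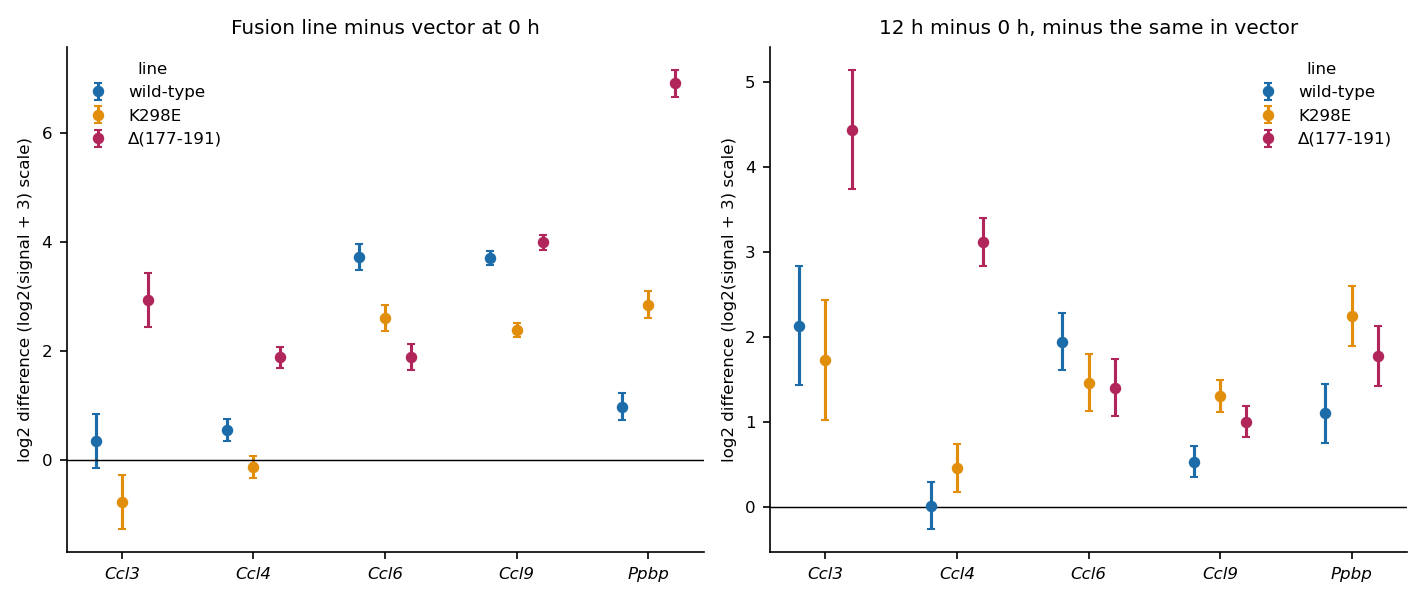
Differences on the log2(signal + 3) scale (vertical) for the main probe sets of the 5 genes that passed the filter, with bars of 1 standard error of the model. On the left each fusion line is compared with the vector line at 0 h, from -0.77 for Ccl3 in the K298E line to 6.91 for Ppbp in the Δ(177-191) line; on the right is the change from 0 to 12 h minus that of the vector line, from 0.01 for Ccl4 in the WT line to 4.44 for Ccl3 in the Δ(177-191) line.

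The time of the highest mean differed between lines. In the WT line all 5 genes were highest at 6 h, in the Δ(177-191) line 3 were highest at 9 h and 2 at 12 h, in the K298E line 2 at 6 h and 3 at 9 h, and in the vector line 2 at 0 h and 3 at 6 h. At 0 h the call rule used for other genes (adjusted p under 0.05 by limma) would place all 5 genes higher in the Δ(177-191) line than in the vector line, where 13.2% of all genes were called higher and 15.3% lower. It would place Ccl6, Ccl9 and Ppbp higher in the WT line (2.91% of all genes higher, 2.80% lower) and in the K298E line (3.01% higher, 3.45% lower). These placements use the main probe sets. The second Ccl6 probe set, at 0.39 ± 0.32, would not be called in the Δ(177-191) line at 0 h. Since the genes were chosen on these arrays, these counts are given as a description and nothing is read from them. Of the 45 placements of these genes over all comparisons, at 0 h and at 12 h together, 10 differed without replicate 2. When only the compared groups were fitted, 8 differed.

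For the relative change at 12 h the same rule would place all 5 genes higher in the Δ(177-191) line (9.94% of all genes higher, 12.4% lower), Ccl6, Ccl9 and Ppbp higher in the K298E line (3.37% higher, 2.23% lower), and Ccl6 higher in the WT line (3.81% higher, 3.37% lower). The vector line itself had Ccl6 and Ppbp lower at 12 h (9.73% of all genes lower, 7.69% higher). Here too the main probe sets were used. The second Ccl6 probe set would not be called for any of these changes in any line. Its vector change, at 0.62 ± 0.32, had the opposite sign to that of the main probe set. These comparisons share the vector arrays. Of the WT change minus the K298E change, Ccl9 at -0.77 ± 0.18 and Ppbp at -1.14 ± 0.35 would be called lower (8.52% of all genes lower, 7.93% higher). Of the WT change minus the Δ(177-191) change, Ccl3 at -2.31 ± 0.70 and Ccl4 at -3.10 ± 0.28 would be called lower (9.37% lower, 12.2% higher). For Ccl9 the main probe set, at -0.47 ± 0.18, would not be called there, and the second, at -0.71 ± 0.16, would be called lower. By its main probe set the Ccl6 change at 12 h was larger in the WT line than in the K298E line by 0.48 ± 0.34. It was larger than in the Δ(177-191) line by 0.54 ± 0.34, and both are within about 2 standard errors. The second probe set gave 1.08 ± 0.45 and 0.64 ± 0.45, and neither would be called. At 6 h the relative change of the main probe set was 1.24 ± 0.34 in the WT, 0.47 ± 0.34 in the K298E and -0.13 ± 0.34 in the Δ(177-191) line.

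The receptors of these chemokines were tested as genes outside the chosen set. Ccr1, the receptor of CCL3, CCL6 and CCL9, read 834 ± 54.4 in the Δ(177-191), 45.3 ± 1.15 in the WT, 38.7 ± 5.51 in the K298E and 19 ± 2 in the vector line at 0 h, and 1334 ± 62.0, 153 ± 10.5, 73.3 ± 7.37 and 8 ± 5.29 at 12 h. By limma its 0 h level was higher than in the vector line by 5.25 ± 0.20 in the Δ(177-191) line (adjusted p = 1.6e-24), by 1.14 ± 0.20 in the WT line (adjusted p = 0.000128) and by 0.92 ± 0.20 in the K298E line (adjusted p = 0.00247). Its relative change at 12 h passed the test in all 3 fusion lines, at 2.83 ± 0.28 in the WT line (adjusted p = 4.38e-10), 2.02 ± 0.28 in the K298E line (adjusted p = 2.98e-06) and 1.82 ± 0.28 in the Δ(177-191) line (adjusted p = 2.73e-06). The WT change of Ccr1 exceeded that of the Δ(177-191) line by 1.01 ± 0.28 (limma, adjusted p = 0.00844), and the difference from the K298E line, 0.81 ± 0.28, missed the threshold (adjusted p = 0.0503). The vector signals of Ccr1 at 12 h were all under 14, so the sizes of the relative changes depend on the added 3, and the vector change of -1.15 ± 0.20 (limma, adjusted p = 3.41e-05) is part of each.

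Cxcr2, the receptor for the processed Ppbp product, had WT signals of 58.0 ± 9.17 at 0 h, 153 ± 35.6 at 6 h and 69.0 ± 10.4 at 12 h, while in the vector line it went from 40.3 ± 13.1 to 12.7 ± 4.51 at 12 h. Its relative change at 12 h by limma was 1.71 ± 0.39 in the WT line (adjusted p = 0.0033) and 2.23 ± 0.39 in the Δ(177-191) line (adjusted p = 2.82e-05), and 0.92 ± 0.39 in the K298E line did not pass (adjusted p = 0.234). Part of each value is the vector change of -1.47 ± 0.28 (limma, adjusted p = 0.000134). Ccr2, the receptor of CCL2, read under 31 in every group mean and was called at 0 h in the Δ(177-191) line, at 1.90 ± 0.59 (limma, adjusted p = 0.0136). The vector mean of Ccr2 there was 6.33 ± 8.50, under 14, so this size too depends on the added 3. The Ccr3 probe set did not pass the filter.

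Among the other chemokine ligands, 19 of the 29 measured were tested. In the Δ(177-191) line 5 of the 19 rose and 2 fell relative to vector at 12 h, where 9.94% of all genes were called higher and 12.4% lower. Cxcl2, a CXCR2 ligand that draws neutrophils, went from 242 ± 20.2 to 646 ± 97.8 in that line, with a relative change of 3.20 ± 0.36 (limma, adjusted p = 3.01e-09). Part of this value is the fall of Cxcl2 in the vector line to a mean under 14. Cxcl11, a CXCR3 ligand, went from 5.00 ± 5.20 to 41.7 ± 3.79, with 2.98 ± 0.75 (limma, adjusted p = 0.00305), a size that depends on the added 3. Ccl5, a CCR1 ligand, went from 147 ± 10.4 to 198 ± 33.2 while it fell in the vector line from 54.0 ± 4.36 to 11.3 ± 7.51, which gave 2.55 ± 0.42 (limma, adjusted p = 7.71e-06). The genes that fell were Cx3cl1, whose product is membrane-bound, at -1.82 ± 0.20 (limma, adjusted p = 2.84e-09), and Ccl17, a CCR4 ligand, at -1.73 ± 0.30 (limma, adjusted p = 2.04e-05).

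In the WT line 1 of the 19 ligands was called higher and 1 lower relative to vector, beside 3.81% and 3.37% of all genes. They were Cxcl2 at 1.85 ± 0.36 (limma, adjusted p = 0.000384) and Cx3cl1 at -1.04 ± 0.20 (limma, adjusted p = 0.000434). The Cxcl2 signal in that line was 18.7 ± 3.06 at 0 h and 19.3 ± 2.52 at 12 h, and in the vector line Cxcl2 fell from 43.0 ± 3.46 to 10.7 ± 4.16, which is the larger part of the relative change. In the K298E line limma called 3 of 19 higher and 0 lower relative to vector (4 and 0 at an unadjusted p under 0.05), and the 2 with the largest changes were Ccl5 at 1.97 ± 0.42 (limma, adjusted p = 0.00212) and Cxcl2 at 1.63 ± 0.36 (limma, adjusted p = 0.00317). Neither had a higher mean at 12 h in the K298E line itself: Ccl5 read 15.7 ± 4.51 at 0 h and 13.3 ± 2.31 at 12 h, and Cxcl2 read 23.7 ± 3.51 and 20.7 ± 3.21, while both fell in the vector line to means under 14. The third was Pf4 at 1.03 ± 0.23 (limma, adjusted p = 0.00424), with signals of 62.0 ± 3.61 at 0 h and 138 ± 37.9 at 12 h. Of all genes, 3.37% were called higher and 2.23% lower in the K298E line. In the vector line itself limma called 3 ligands lower and 0 higher at 12 h, the same counts as at an unadjusted p under 0.05. There 9.73% of all genes were called lower and 7.69% higher. The median relative change of the 19 ligands was -0.06 in the WT, 0.45 in the K298E and 0.35 in the Δ(177-191) line, against -0.03, 0.02 and -0.04 over all genes tested.

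Of the 22 receptors measured, 16 were tested. Relative to vector at 12 h, 4 rose in the WT line, 1 in the K298E line and 3 in the Δ(177-191) line by limma. The shares of all genes called higher were 3.81%, 3.37% and 9.94%, and those called lower 3.37%, 2.23% and 12.4%. None of the 16 was called lower in these lines, and at an unadjusted p under 0.05 the lower ones were 0, 1 and 2. The median relative change of the receptors was 0.32, 0.07 and -0.28 in that order, so in the Δ(177-191) line the median and the calls differ in sign. Besides Ccr1, the WT line had Cxcr4, the CXCL12 receptor, at 1.71 ± 0.33 (limma, adjusted p = 0.000324), and the Δ(177-191) line had Ccrl2, an atypical receptor, at 2.50 ± 0.28 (limma, adjusted p = 2.53e-09). At 0 h the Δ(177-191) line had 6 of 16 receptors higher and 1 lower than the vector line, the lower one being Cxcr4 at -2.34 ± 0.23 (limma, adjusted p = 4.63e-11), with 18.3 ± 3.51 against 105 ± 14.7. Of the 19 ligands limma called 7 higher and 0 lower there (also 7 and 0 at an unadjusted p under 0.05), led by Pf4 and by Cxcl3, a CXCR2 ligand, at 2.80 ± 0.38 (limma, adjusted p = 1.36e-07). For the WT line at 0 h limma called 2 ligands lower and 1 receptor higher, and for the K298E line 1 ligand was higher and 2 lower, with 1 receptor higher and 1 lower. At 0 h 13.2% of all genes were called higher and 15.3% lower in the Δ(177-191) line, 2.91% and 2.80% in the WT line, and 3.01% and 3.45% in the K298E line. The median difference of the 19 ligands in the Δ(177-191) line at 0 h was 0.28 and that of the 16 receptors 0.54, against -0.01 over all genes tested.

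**Figure D4:**
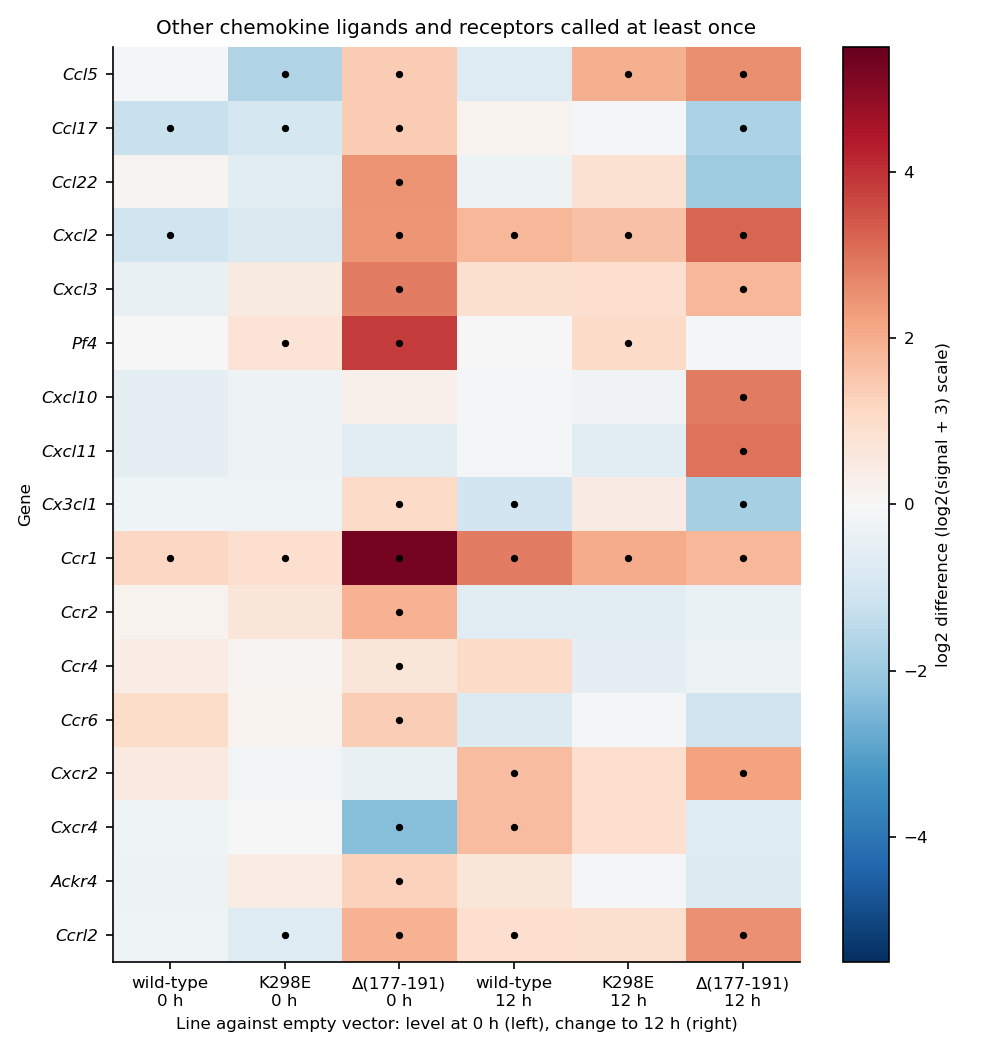
Colour gives the difference from the vector line on the log2(signal + 3) scale for the other chemokine ligands and receptors (rows) called in at least 1 comparison shown, with the level at 0 h in the left 3 columns and the change to 12 h in the right 3. A dot marks an adjusted p under 0.05; the darkest cell is Ccr1 in the Δ(177-191) line at 0 h, at 5.25, and Cxcl2 and Ccr1 have dots in all 3 columns at 12 h.

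Genes of NF-kB and Toll-like receptor signalling, a pathway that drives chemokine transcription in many leukocytes, were counted as a further list of 34 tested genes. The list also holds inhibitors of this signalling, such as Irak3, and their rises are counted in the same way. At 12 h 17 rose and 2 fell relative to vector in the Δ(177-191) line, 4 rose and 2 fell in the WT line (11 and 3 at an unadjusted p under 0.05), and 6 rose and 0 fell in the K298E line by limma (13 and 0 at an unadjusted p under 0.05). The median relative change was 0.71, 0.22 and 0.24 in that order, against -0.04, -0.03 and 0.02 over all genes tested. Of all genes, 9.94%, 3.81% and 3.37% were called higher and 12.4%, 3.37% and 2.23% lower, in the same order. Rel, an NF-kB subunit, led in the Δ(177-191) line at 2.31 ± 0.32 (limma, adjusted p = 4.17e-07) and its WT value was 1.17 ± 0.32 (adjusted p = 0.0193). Irak3, an inhibitor of Toll-like receptor signalling, led in the WT line at 2.46 ± 0.30 (limma, adjusted p = 8.13e-08), and at 0 h it was lower in the Δ(177-191) line than in vector by 3.77 ± 0.21 (adjusted p = 1.56e-18). Ikbke, a kinase of this pathway, was higher there by 3.33 ± 0.17 (limma, adjusted p = 1.09e-19), one of 19 genes that were higher at 0 h against 3 that were lower. The shares of all genes there were 13.2% higher and 15.3% lower. In the vector line limma called 9 genes of the list lower and 0 higher at 12 h (12 and 0 at an unadjusted p under 0.05), beside 9.73% and 7.69% of all genes. Of 10 tested factors of mRNA decay, 3 rose and 1 fell in the Δ(177-191) line, and 1 fell in each of the WT and K298E lines. The shares of all genes at 12 h given above hold for these counts too, and nothing is read from so few calls.

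Markers of cells that secrete these chemokines differed in summed signal between the lines, and the sums did not always follow the chemokine levels. In bulk RNA, a change in the share of cells of a type and a change in RNA per cell cannot be told apart. The summed signal of the 14 monocyte and macrophage markers measured, of 15 listed, ran from 4990 to 5165 over the 3 Δ(177-191) arrays at 0 h, 2071 to 2253 in the WT, 1767 to 1866 in the K298E and 1284 to 1404 in the vector line. From 6 to 12 h it ran from 3882 to 4461, 1710 to 2110, 1949 to 2202 and 949 to 1155. Lyz2, which encodes lysozyme, was higher in the Δ(177-191) line at 0 h by 4.38 ± 0.13 (limma, adjusted p = 4.62e-28), and Cd163, Marco, Ms4a7 and Msr1 had no group mean above 14. The part of these markers in the chemokine levels was not tested.

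Of 13 listed megakaryocyte and platelet markers, 11 were measured. Their summed signal at 0 h was 913 to 962 in the Δ(177-191), 1416 to 1498 in the K298E, 1754 to 2032 in the WT and 1759 to 2039 in the vector line, with Pf4 among them. In the Δ(177-191) line at 0 h, 10 of them were tested, of which 1 was higher and 4 were lower than in the vector line. Of all genes, 13.2% were higher and 15.3% lower there. Itga2b, the platelet integrin subunit, was lower in the Δ(177-191) line at 0 h by 2.52 ± 0.10 (limma, adjusted p = 1.48e-23) and Gp9 by 3.19 ± 0.44 (adjusted p = 1.39e-07). From 6 to 12 h the sum was 590 to 776, 1202 to 1462, 917 to 1301 and 1403 to 1814, and Clec1b had no group mean above 14.

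Of the 12 listed myeloid progenitor markers all were measured, and their sums ran from 7318 to 7778 in the Δ(177-191), 8297 to 8760 in the WT, 7867 to 8246 in the K298E and 6783 to 6955 in the vector line at 0 h, with Cd34 alone under 14 in every group mean. Of the 11 tested, limma called 3 higher and 3 lower in the Δ(177-191) than in the vector line at 0 h. Of all genes, 13.2% were higher and 15.3% lower there. Mast cell and basophil markers (9 of 9 measured) summed to 442 to 530 in the Δ(177-191) line and 1874 to 2524 in the other lines at 0 h, with Fcer1a, Mcpt8 and Tpsb2 under 14 throughout. The highest group mean was 1841 for Gata2, 682 for Cpa3 and 21 or less for each other gene of this list. Of the 5 tested, 0 were higher and 3 lower in the Δ(177-191) than in the vector line at 0 h. Lymphoid markers (10 of 12) summed to 79 to 111 in the Δ(177-191) line and 236 to 559 in the others at 0 h, with Cd3e, Cd3g, Cd4 and Cd79b under 14. Here the highest group mean was 425 for Nkg7 and 59.7 or less for each other gene. Of the 5 lymphoid genes tested, 0 were higher and 1 was lower in the Δ(177-191) than in the vector line at 0 h. The shares of all genes given above hold for these counts too. Fibroblast and stromal markers (10 of 10) summed to 71 to 168 over all lines at 0 h, with Col1a1, Col3a1, Dcn, Lum, Pdgfrb and Postn under 14.

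The genes whose log2 signals followed each chemokine gene most closely over the 48 arrays are given as a description, since the arrays share lines and times. For Ccl3 they were N4bp1, Mapkapk2 and Ppp2cb, with Pearson r of 0.95, 0.94 and 0.94, and within the 12 Δ(177-191) arrays r was 0.97, 0.97 and 0.91. Within the WT line it was 0.82, 0.67 and 0.64, within the K298E line 0.07, 0.11 and 0.28, and within the vector line 0.24, 0.38 and 0.20. For Ccl4 they were Ccrl2, Tnfrsf22 and Tlr2 (0.96, 0.96 and 0.95), with 0.96, 0.97 and 0.93 within the Δ(177-191) line but -0.26 to 0.41 within the WT and K298E lines. For Ccl6 they were Cyp11a1, Ifitm6 and Slpi (0.94, 0.91 and 0.87), with 0.83, 0.94 and 0.91 within the WT line. Within the K298E line r was 0.66, 0.74 and 0.82, within the Δ(177-191) line 0.59, 0.51 and 0.34, and within the vector line 0.65, 0.25 and 0.56.

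For Ccl9 the closest gene was Esr1, by the main probe set that reads the fusion itself, with r of 0.96 over the 48 arrays. Within lines the r of Ccl9 and Esr1 was 0.04 in the vector, -0.09 in the WT, -0.86 in the K298E and 0.26 in the Δ(177-191) line (n = 12 each), so the value over all arrays rests on the differences between lines. Adam8 and Dhrs3 followed at 0.94 each, with 0.96 each within the K298E line, but -0.59 and 0.56 within the Δ(177-191) line. For Ppbp the closest were S100a9, Evi2a and S100a8 (0.95 each), and within the Δ(177-191) line their r was -0.30, -0.49 and -0.05, so these values too rest on the levels of the lines.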

How the data were processed

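The series measured total RNA of 48 cultures on Affymetrix MOE430_2 arrays. The authors deposited linear MAS5 signal intensities as whole numbers, as the submitters' processing notes and the values show (no MAS5 version is stated). The platform annotation names 1 gene for 34945 probe sets and several for 932, and 9160 have no symbol. Names were brought up to date through a RefSeq table of GRCm38.p6.

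Here log2(signal + 3) was used, which understates changes of low signals. The filter kept 27167 probe sets with any of the 16 group means above 4.09 (a signal of 14). A gene was represented by the tested probe set with the highest mean. The 16 groups were modelled with limma 3.58.1 under R 4.3.3, with 32 residual degrees of freedom and two-sided p-values adjusted by Benjamini and Hochberg over all tested probe sets; the threshold was 0.05. The relative change is the change from 0 h minus that of the vector line. The script was tested on simulated data. Motifs were searched in Python 3.11.15 and alignments made with Biopython 1.88 in RefSeq promoters.

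The members, the 10 gene lists and the tests were chosen with earlier results of these data known. Of each list, up to 2 rises and 2 falls per comparison could be named, the receptors Ccr1, Ccr2, Ccr3 and Cxcr2 (a further receptor is not reported here) and the neighbours Ccl5, Ccl7 and Pf4 always where tested, and per member the 3 genes with the highest r; the closing text names every chemokine ligand or receptor whose change at 12 h differed between the WT and a mutant line. Alternatives were 2 larger pseudocounts, no filter, median centring, quantile normalization, a fit of only the compared groups, array weights, a replicate block, the probe set of highest variance and leaving out each replicate number. Replicate numbers are not tied to experiments by the labels. Array number and signal over background limit the precision.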

Additional observations from a re-analysis of the deposited data

Results flagged for a closer look

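Changes at 12 h differed between the WT line and a mutant line, by the test of the difference itself, for several chemokine ligands and receptors outside the chosen set. The mutant lines were not compared with each other. For the WT change minus the K298E change, limma called Ccl5 at -2.69, Ccr7 at -2.04, Cx3cl1 at -1.48 and Pf4 at -1.06 lower and Ccr4 at 1.57 higher on the log2(signal + 3) scale. The Ccr7 value rests on signals of 14.3 ± 2.08 (SD, n = 3) at 0 h and of 1 in all 3 arrays at 12 h in the WT line, both near background, while Ccr4, the receptor of Ccl17, went from 38.7 ± 8.50 to 96.3 ± 1.15 in the WT line.

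For the WT change minus the Δ(177-191) change, limma called Ccl5 at -3.27, Cxcl11 at -3.04, Cxcl10 at -2.94, Ccrl2 at -1.59 and Cxcl2 at -1.35 lower. It called Cxcr4 at 2.40, Ccl17 at 1.94, Ccr4 at 1.32, Ccr1 at 1.01 and Cx3cl1 at 0.78 higher. The Cxcl11 value rests on low signals, with a highest group mean of 41.7, so its size depends on the added 3.

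Among the chosen chemokine genes, 3 had all arrays at 12 h below the 0 h arrays in the vector line and all above them in a fusion line. The difference between the lines was 3.12 for Ccl4 in the Δ(177-191) line. For Ccl9 it was 0.53 in the WT, 1.31 in the K298E and 1.001 in the Δ(177-191) line, and for Ppbp it was 2.25 in the K298E and 1.77 in the Δ(177-191) line. These differences were not tested as results, since the genes were chosen on these arrays, and the call rule was applied to them only as a description.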

How the results depend on the processing

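Of the 540 member differences recomputed under 12 alternatives, 71 moved by more than the spread between replicates and 7 changed sign, each of the 7 with a size of at most 0.44 in the reported fit. Whether a member would be called differed in 10 of 45 cases without replicate 2, in 8 with a fit of only the compared groups, in 6 with quantile normalization and in at most 5 under each other alternative. Low Ccl3 and Ppbp signals, and low Ccl6 signals in the vector line, make the sizes of these genes depend on the added constant. The number of other chemokine ligands and receptors called in a comparison moved by over 1.5 times in 7 of 108 recounts. With median centring the K298E relative change went from 4 to 2 calls. Leaving out 1 replicate number gave 3 to 4 calls for the WT relative change (6 with all, 3 without replicate 3), 1 to 3 for the K298E one (4 with all, 1 without replicate 2), 8 to 9 for the Δ(177-191) one (10 with all), and 5 to 6 for the vector change (6). It gave 4 to 5 for WT minus K298E (5 with all), 5 to 9 for WT minus Δ(177-191) (10 with all, 5 without replicate 2), and at 0 h 2 to 3 for WT (3), 2 to 3 for K298E (5) and 11 to 12 for Δ(177-191) (14). Leaving out replicates leaves 2 arrays a group, which lowers the power of each test. The fit with a replicate block gave 6, 5 and 10 calls for the relative changes of the WT, K298E and Δ(177-191) lines. Over 360 pairs of arrays with the same number the median correlation of deviations was 0.02, from -0.40 to 0.45, against -0.01 for other numbers, so the numbers were not taken as pairs. Of 48 arrays, 24 correlated best with their own number, a larger share than meaningless numbers would give on average. The 2 promoters with the relaxed C/EBP pattern became 0 with the stricter one.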
